A study of Drosophila melanogaster with 12 samples.

Results

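All ribosome-bound RNA was compared with all head lysates of adult Drosophila melanogaster, to find transcripts that stood higher or lower in ribosome-bound RNA whatever the cell type. Ribosome-bound RNA is the material pulled down by an antibody against a GFP-tagged ribosomal protein L10A (IP), and the lysate is the aliquot taken before the pull-down (Input). Genes were taken where at least 1 Input reached 5 FPKM (fragments per kilobase of transcript scaled to all mapped fragments), which gave 7849 of the 15104 genes in the deposited table. Of these, 34 were listed at 0 in at least 1 column and 7815 entered the fit.

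The groups were the neuron, glia and fat body IPs, and the neuron, glia and fat body Inputs. In all of them the flies were of strain 2202U and carried UAS-GFP-L10A, and the lysates came from whole adult heads, 1000 to a lysate. The genotypes were Elav-Gal4/+;UAS-GFP-L10A/+ for neurons, repo-Gal4/+;UAS-GFP-L10A/+ for glia and UAS-GFP-L10A/+;takeout-Gal4/+ for the fat body, so the cells that carry the tag are those in which each Gal4 driver is active. An Input therefore holds RNA of the whole head, less the nuclei, which were spun out before the ribosomes were released. The 12 samples form these 6 groups of 2 biological replicates, and the authors deposited 1 FPKM value per gene and group, combined over both replicates.

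Gal4 is a yeast transcription factor that switches on genes placed behind a UAS sequence. Translating ribosome affinity purification uses it to tag ribosomes in chosen cells, and RNA that is recovered with them is read as RNA in translation. A difference between IP and Input can hold the cell type's own expression profile, ribosome association and recovery in the pull-down at once. Taking what the 3 cell types have in common sets aside the first of these only in part, because a transcript of cells that none of the drivers marks can also be low in every IP. In bulk samples of this kind, fewer cells of a type and less RNA per cell cannot be told apart.

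The genes that mark the drivers were read first. The glial transcription factor repo had 11.2, 141 and 20.9 FPKM in the IPs of neurons, glia and fat body, against 22.7, 22.4 and 20.6 FPKM in the matching Inputs. The takeout gene to had 9.57, 55.8 and 44.4 FPKM in the same IPs, against 10.4, 9.32 and 12.5 FPKM in the Inputs, and was thus high in the glia IP as well as in the fat body IP. The neuronal RNA-binding gene elav had 3.48, 1.36 and 1.88 FPKM in the IPs, against 15.0, 5.97 and 7.55 FPKM in the Inputs, so it was highest in the neuron IP among the IPs and lower in that IP than in its own Input. Of the whole marker lists, the 7 neuron markers summed to 361, 51.5 and 90.4 FPKM in the IPs, against 595, 377 and 443 FPKM in the Inputs. The 8 glia markers summed to 1048, 3175 and 1494 FPKM in the IPs, against 1635, 1336 and 1396 FPKM in the Inputs. The 8 fat body markers summed to 5639, 6523 and 50862 FPKM in the IPs, against 19696, 22813 and 19789 FPKM in the Inputs. Among the IPs each list was highest in that of its own cell type, but the neuron markers summed to less in the neuron IP than in any Input. Most of the neuron sum was n-syb, at 332 FPKM in the neuron IP and 396 FPKM in the neuron Input. Each of the other neuron markers was also lower in the neuron IP than in the neuron Input. No marker was listed at 0. The 7 markers of the male reproductive tract summed to 34.99, 2533 and 52.2 FPKM in the IPs, against 103, 286 and 97.7 FPKM in the Inputs, which sets the glia libraries apart, and their part in the results below was not tested.

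The FPKM of all genes summed to 839267 for the neuron IP, 839886 for the glia IP and 1704813 for that of the fat body, against 636575, 570917 and 578807 in the matching Inputs. The 3 IPs correlated with one another across the fitted genes with a Spearman rho of 0.77 to 0.85, and the 3 Inputs with 0.92 to 0.98. The log2 differences of IP minus Input correlated between cell types with rho of 0.46 for neuron and glia, 0.44 for neuron and fat body, and 0.58 for glia and fat body. These are across genes, which are not independent replicates. Depth is unknown, since FPKM carries no counts.

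Each gene's difference was the mean over the 3 cell types of log2(FPKM + 1) in the IP minus that in its own Input, a scale that understates the change of genes at a low level. It was tested with limma with the cell type as a block and a Benjamini-Hochberg adjustment over the 7815 genes. Each cell type gave 1 value a group, so the p-values measure how far the cell types differ, not how far replicate libraries do. By adjusted p under 0.05, 179 genes were higher in the IPs (2.29% of those tested) and 559 were lower (7.15%). The 5 FPKM rule asks for a level in an Input alone. A gene near 0 in the IPs can thus enter as lowered, while a gene near 0 in the Inputs cannot enter as raised. The called genes lay at a median of 1.47 among the higher and -1.66 among the lower, and the smallest adjusted p of limma was 0.0213 among the higher and 0.0203 among the lower. With no test of the spread, 390 genes (4.99%) were at least 2-fold higher and 492 (6.3%) at least 2-fold lower in each of the 3 cell types. Among the called genes 23 of the higher and 106 of the lower were not 2-fold apart in every cell type.

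The calls sat close to the threshold and did not survive several other settings. In limma without the trend of the variance on the level there were 0 calls, with 1901 genes higher and 1261 lower at an unadjusted p under 0.05. There were also 0 calls in limma among genes with a mean of at least 5 FPKM over the 6 columns, with 1925 higher and 840 lower at an unadjusted p under 0.05. Without the glia pair limma made 0 calls, with 1110 higher and 1026 lower at an unadjusted p under 0.05, and without the fat body pair 0 calls, with 804 and 1145. The limma calls among lower genes were 388 without the neuron pair, of which 288 were among the 559, while the calls among higher genes were 24, of which 5 were among the 179. An exact two-sided sign-flip permutation test of 3 pairs cannot go below 0.25. A gene called here is therefore one that passed this one model.

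The direction also rests on scaling. Over all fitted genes the median difference was 0.41, and 39.0% of genes (3051) were higher and 23.6% (1847) lower in each of the 3 cell types. With median scaling the median was -0.15, with 1456 genes higher and 2666 lower in each cell type, and with total scaling it was -0.47, with 560 and 3176. Scaling every column to the same median moved the median difference by -0.60 for a gene far above the pseudocount, and scaling to the same total, cytosolic ribosomal protein genes left out, by -0.94. Both scalings move all genes downward, so they bear on the calls in both directions. The lower calls of limma rose from 559 to 1516 with median scaling and 1981 with total scaling, the 559 among them. Of the 179 higher genes, 19 were called higher after median scaling and 5 after total scaling. The share of higher genes among all calls was 24.3% as deposited, 1.24% with median scaling and 0.352% with total scaling.

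**Figure D1:**
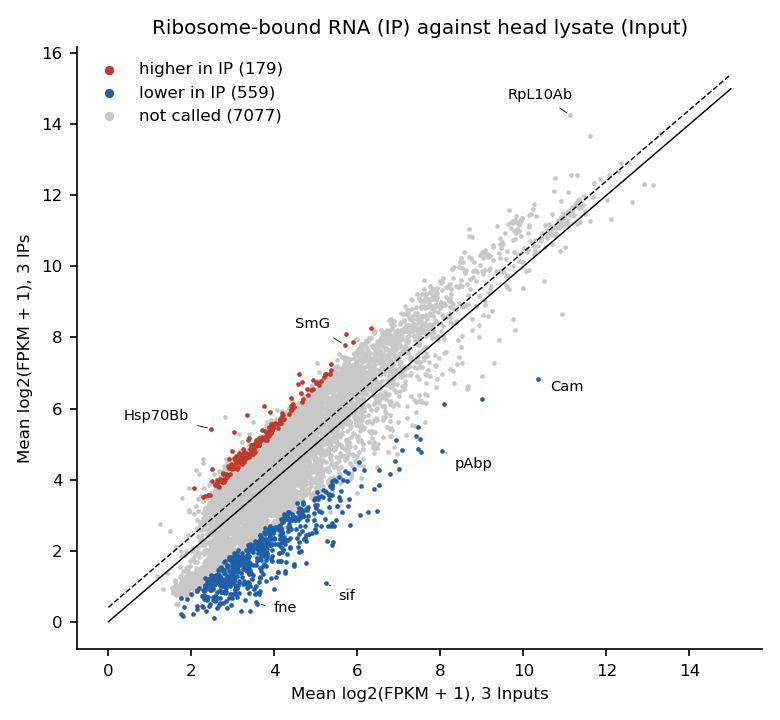
Mean log2(FPKM + 1) of the 3 IPs (vertical) against that of the 3 Inputs (horizontal), 1 point per gene, coloured by the limma call. The solid line marks equality and the dashed line the median difference of 0.41; the 559 lower genes fan out below the cloud, with sif, Cam and pAbp farthest from it, and the 179 higher genes form a narrow band along its upper edge.

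The largest fall was in sif, which encodes still life, an exchange factor for the GTPase Rac found at synapses. It had 2.67, 0.336 and 0.969 FPKM in the IPs of neurons, glia and fat body, against 55.9, 25.1 and 34.8 FPKM in the matching Inputs. Every IP lay below every Input, and the mean difference was -4.14 ± 0.25 (log2, limma, adjusted p = 0.0203). With less than 5 FPKM in every IP, sif met the 5 FPKM rule through its Inputs alone. The value after ± is, here and below, the moderated SE of limma. It draws each gene's spread over the 3 cell types toward that of genes at a like level. Calmodulin (Cam), the calcium sensor of most cells, had 206, 48.8 and 145 FPKM in the IPs, against 1873, 969 and 1222 FPKM in the Inputs. It was the most abundant of the 15 named genes with the largest falls and differed by -3.51 ± 0.53 (limma, adjusted p = 0.0278). IA-2, a phosphatase-like membrane protein of dense-core vesicles, had 12.6, 3.51 and 9.62 FPKM in the IPs, against 132, 61.6 and 83.6 FPKM in the Inputs. The neuron pair of IA-2 differed as the glia and fat body pairs did, with a mean of -3.36 ± 0.33 (limma, adjusted p = 0.0203).

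Both fly relatives of REDD1, scyl and chrb, which restrain the growth kinase TOR, were low in every IP. scyl had 2.12, 5.42 and 4.15 FPKM in the IPs of neurons, glia and fat body, against 61.4, 30.9 and 37.5 FPKM in the Inputs. chrb had 1.53, 2.57 and 2.41 FPKM in the IPs, against 45.0, 17.7 and 22.4 FPKM in the Inputs. The mean differences were -3.18 ± 0.44 for scyl and -3.12 ± 0.41 for chrb, and in both genes the neuron IP was the lowest IP while the neuron Input was the highest Input. The ecdysone-induced transcription factor gene Eip93F had 0.199, 0.505 and 0.803 FPKM in the IPs, against 17.3, 6.94 and 10.2 FPKM in the Inputs, and Mnt, a repressor of the Max network, had 0.532, 0.544 and 1.14 FPKM against 17.0, 8.50 and 10.0 FPKM. Every IP lay below every Input in both genes, with differences of -2.99 ± 0.37 and -2.85 ± 0.32. The 15 named genes with the largest falls further held nrv3, a beta subunit of the sodium pump, at -3.15, Nckx30C, a sodium-calcium exchanger, at -2.88, and the protein kinase C gene Pkc98E at -2.82.

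**Figure D2:**
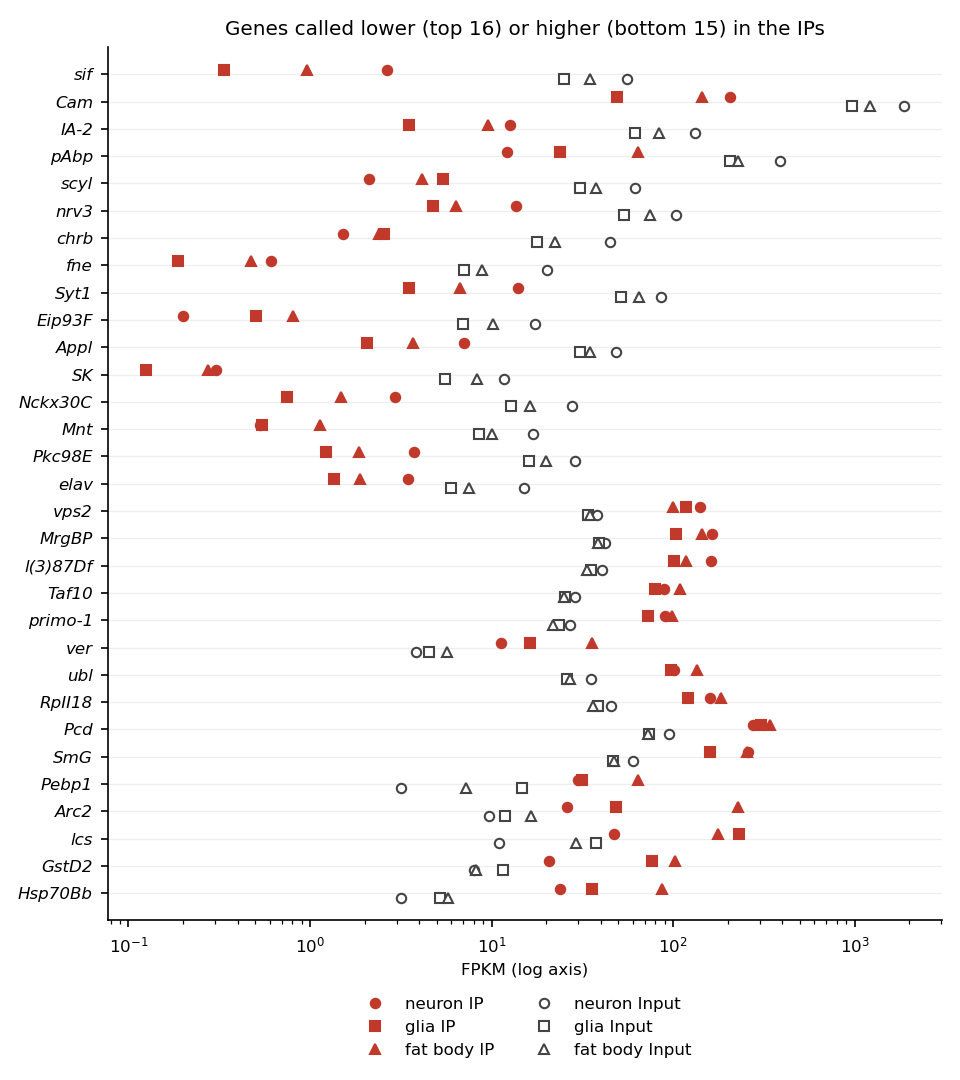
FPKM on a log axis of 31 genes chosen by a fixed rule, with filled red symbols for the neuron, glia and fat body IPs and open symbols for the Inputs. In the 16 lowered genes at the top every IP lies left of every Input, and in the 15 raised genes at the bottom every IP lies right of every Input.

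Regulators of RNA itself were often lowered. Of 57 fitted poly(A)-binding, hnRNP and splicing regulator genes, 24 were called lower (42.1%, against 7.15% over all fitted genes) and 0 higher, with a median of -0.95 against 0.41 over all fitted genes. pAbp, the cytoplasmic poly(A)-binding protein, had 12.2, 23.9 and 64.2 FPKM in the IPs of neurons, glia and fat body, against 387, 205 and 227 FPKM in the Inputs. Its fall was steepest in the neuron pair, and the mean was -3.24 ± 0.64 (limma, adjusted p = 0.0456). All 3 members of the ELAV family of RNA-binding proteins were called lower. fne had 0.607, 0.186 and 0.476 FPKM in the IPs, against 20.3, 7.09 and 8.82 FPKM in the Inputs. Rbp9 had 34.4, 27.9 and 49.7 FPKM in the IPs, against 218, 146 and 151 FPKM in the Inputs. The differences were -3.08 ± 0.30 for fne, -2.18 ± 0.41 for Rbp9 and -1.66 ± 0.24 for elav, and the IPs lay below the Inputs throughout. The splicing factor gene mbl (muscleblind) fell by 2.81 on the log2 scale. The core of the splicing machinery did not share this: of 11 fitted snRNP and Sm protein genes 1 was called higher, 0 lower, and the median was 1.49. A test of the difference between these lists was not run.

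Genes on the pan-neuronal list were mostly lower in the neuron IP too. The list holds Cam, a gene of most cells, and shares Cam, cpx and sif with other lists, so the counts of different lists overlap. Of 40 fitted members, 25 were called lower (62.5%, against 7.15% over all fitted genes) and 0 higher, and the medians of the list were -1.95 in the neuron pair, -2.28 in the glia pair and -2.06 in the fat body pair, against medians over all fitted genes of 0.14, 0.21 and 0.39. Appl, the fly amyloid precursor protein gene, had 7.08, 2.06 and 3.68 FPKM in the IPs, against 48.7, 30.8 and 34.97 FPKM in the Inputs. Syt1, the calcium sensor of vesicle release, had 13.98, 3.51 and 6.70 FPKM in the IPs, against 85.9, 51.5 and 64.6 FPKM in the Inputs. In both the neuron IP was the highest IP and still lay below the lowest Input, with differences of -2.98 ± 0.29 and -3.06 ± 0.34 (limma, adjusted p = 0.0203 and 0.0212).

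Release and excitability genes divided by member. Of 33 fitted synaptic vesicle genes 12 were called lower (36.4%, against 7.15% over all fitted genes) and 0 higher, with medians of -0.62 in the neuron pair, -2.12 in the glia pair and -1.96 in the fat body pair. cpx, the release clamp complexin, had 145, 37.9 and 81.3 FPKM in the IPs, against 773, 382 and 465 FPKM in the Inputs, a difference of -2.74 ± 0.46 that all pairs shared. n-syb, the neuronal synaptobrevin that drives vesicle fusion, had 332, 43.7 and 76.4 FPKM in the IPs, against 396, 270 and 309 FPKM in the Inputs. Its neuron IP overlapped the Inputs, and at -1.62 ± 0.59 it was not called (limma, adjusted p = 0.0997). Of 25 fitted channel genes 15 were called lower (60%) and 0 higher, with a median of -1.89. The potassium channel gene Sh (Shaker) had 1.03, 0.325 and 0.881 FPKM in the IPs, against 15.61, 6.70 and 11.1 FPKM in the Inputs, and SK, a calcium-activated potassium channel gene, had 0.302, 0.124 and 0.276 FPKM against 11.7, 5.57 and 8.34 FPKM. Both fell in all pairs, by -2.75 ± 0.25 and -2.90 ± 0.27, while the channel regulator gene Slob, at 209, 19.4 and 31.0 FPKM in the IPs against 119, 86.6 and 90.2 FPKM in the Inputs, was higher in the neuron IP and was not called. Of 22 fitted transmitter receptor genes 6 were called lower (27.3%), with medians of -0.08 in the neuron pair, -1.45 in the glia pair and -1.20 in the fat body pair. Among those called were the GABA receptor gene Rdl at -2.43 and gfA, named nAChRalpha7 in the later annotation, at -2.40. Sh, SK, Rdl and gfA had less than 5 FPKM in every IP, so they met the 5 FPKM rule through their Inputs alone. The same held for sif, chrb, fne, elav, Eip93F, Mnt, Nckx30C, Pkc98E and mbl above, and for bt, MED26 and eIF4G2 below. The 2 genes with the highest Input level on that list differed: DopEcR, a receptor for dopamine and ecdysone, was called lower at -1.51, and nAcRbeta-64B at -1.71 was not (limma, adjusted p = 0.0478 and 0.0601).

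Neuropeptide precursors behaved differently from the other neuronal lists. Of 27 fitted members 0 were called in either direction by limma, 0 had an unadjusted p under 0.05, and 0 stood higher or lower in all 3 cell types. The medians were 2.35 in the neuron pair, -1.74 in the glia pair and -1.13 in the fat body pair. The members differed among themselves. sNPF, which encodes short neuropeptide F, had 19.7, 1.83 and 3.15 FPKM in the IPs, against 16.2, 12 and 14.4 FPKM in the Inputs. Nplp2, the member with the highest Input level, had 2886, 1768 and 54996 FPKM in the IPs, against 5663, 3829 and 5705 FPKM in the Inputs. CCHa2, the next in level, had 61.0, 49.5 and 582 FPKM in the IPs, against 186, 123 and 119 FPKM in the Inputs. Among the IPs sNPF was highest in neurons, while Nplp2 and CCHa2 (both named after their values were seen) were highest in the fat body and below their Inputs in neurons and glia. Of 34 fitted phototransduction genes 3 were called lower (8.82%, near the 7.15% over all fitted genes), with medians of 1.09, -1.41 and -0.96 in the same pairs. rdgA, a diacylglycerol kinase gene of photoreceptors, had 13.2, 3.18 and 4.32 FPKM in the IPs, against 62.2, 26.8 and 41.7 FPKM in the Inputs, and norpA, the phospholipase C of the light response, had 63.97, 14.5 and 21.8 FPKM against 195.6, 103.9 and 114.9 FPKM. Their differences were -2.63 and -2.24, with the neuron IP on the same side as the others, and the third called gene, named after its value was seen, was Calx at -1.61. The arrestin gene Arr2, of the same pathway, had 12717, 850 and 1408 FPKM in the IPs, against 3807, 2681 and 3024 FPKM in the Inputs, high in the neuron IP and low in the other IPs.

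Signalling, muscle and clock genes held further lowered members. Of 36 fitted genes of calcium, cAMP and phosphatase signalling, 12 were called lower (33.3%, against 7.15% over all fitted genes) and 0 higher, with a median of -0.93. Pka-C1, the catalytic subunit of protein kinase A, had 8.996, 6.52 and 7.08 FPKM in the IPs, against 70.9, 36.8 and 43.1 FPKM in the Inputs. Its IPs lay close together and far below the Inputs, at -2.54 ± 0.30, whereas 14-3-3zeta, with 247, 240 and 292 FPKM in the IPs against 667, 377 and 452 FPKM in the Inputs, was not called. Of 28 fitted muscle genes, markers of a tissue that none of the 3 drivers is known for, 5 were called lower (17.9%), 23 lay lower in all 3 cell types and the median was -1.18. bt, which encodes the giant muscle protein projectin, had 0.592, 0.823 and 1.396 FPKM in the IPs, against 12.4, 8.45 and 10.9 FPKM in the Inputs. It differed by -2.59 ± 0.28 and was called with Mhc at -1.97, sls at -1.83, Rya-r44F at -1.38 and Unc-89 at -1.31, named after their values were seen, while the muscle actin gene Act57B at -0.91 was not called. Of 19 fitted clock genes 6 were called lower (31.6%), led by the transcription factor gene Pdp1 at -2.53 and the kinase gene sgg at -2.35. The photoreceptor of the clock, cry, had 153, 179 and 189 FPKM in the IPs, against 81.6, 55.6 and 58.6 FPKM in the Inputs, and lay higher in every pair without being called (1.41, limma, adjusted p = 0.0692).

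The list of noncoding RNAs was called lower about as often as genes at large, but gene classes of the later annotation differed. In that annotation 9 of 42 fitted ncRNA genes were called lower (21.4%), 1 of 18 snoRNA genes (5.56%) and 0 of 4 snRNA genes. Of the 94 members of the list that met the 5 FPKM rule, 27 were listed at 0 in a column, and of the 67 fitted ones 7 were called lower (10.4%, against 7.15% over all fitted genes) and 0 higher. The medians were -0.85 in the neuron pair, -0.87 in the glia pair and -0.15 in the fat body pair. snmRNA:158, a small noncoding RNA, had 30.5, 26.1 and 27.1 FPKM in the IPs, against 200, 169 and 162 FPKM in the Inputs. The spread within each group was narrow, and the difference was -2.62 ± 0.36 (limma, adjusted p = 0.0252). The abundant CR34335 had 398, 253 and 657 FPKM in the IPs, against 2689, 1639 and 1719 FPKM in the Inputs, a fall of similar size that was not called (limma, adjusted p = 0.0595). Libraries were made from polyA RNA, in which RNAs without a tail are poorly captured.

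The raised genes were of other kinds. The largest mean difference of a called gene was that of Hsp70Bb, an inducible chaperone gene, with 23.9, 35.6 and 86.8 FPKM in the IPs of neurons, glia and fat body, against 3.17, 5.21 and 5.75 FPKM in the Inputs. It was higher by 2.95 ± 0.35 (limma, adjusted p = 0.0213), and since Hsp70 genes have near-identical copies its level is uncertain. GstD2, a glutathione transferase gene, had 20.7, 76.6 and 103 FPKM in the IPs, against 8.001, 11.6 and 8.18 FPKM in the Inputs. Arc2, a relative of the synaptic gene Arc, had 26.1, 48.2 and 229 FPKM in the IPs, against 9.67, 11.9 and 16.6 FPKM in the Inputs. Both were highest in the fat body IP and were higher by 2.46 ± 0.48 and 2.33 ± 0.52. Among others of the 15 with the largest rises were lcs at 2.39, Pebp1, of the phosphatidylethanolamine-binding family, at 2.31, the ESCRT-III gene vps2 at 1.71, ver, of the telomere cap, at 1.81 and Pcd, a pterin dehydratase, at 1.92. Of the 179 higher genes 110 were known only by a CG or CR number, and 18 were on any of the 40 gene lists. Of the 559 lower genes these counts were 228 and 113. The matching shares over all fitted genes are not given here, and the difference between the higher and lower genes was not tested.

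The transcription machinery held the most raised members of the 40 lists. Of 52 fitted genes of RNA polymerase II, its general factors and Mediator, 11 were called higher (21.2%) and 2 lower (3.85%), against 2.29% and 7.15% over all fitted genes. The median was 1.06, and 43 of the 52 lay higher in all 3 cell types. RpII18, a polymerase subunit named Polr2F in the later annotation, had 160, 121 and 183 FPKM in the IPs, against 45.8, 38.6 and 36.3 FPKM in the Inputs. Taf10, a subunit of TFIID, had 89.5, 79.8 and 109 FPKM in the IPs, against 28.9, 25.5 and 25.1 FPKM in the Inputs. The 3 IPs of each gene lay close together and above all Inputs, with differences of 1.90 ± 0.39 and 1.76 ± 0.35 (limma, adjusted p = 0.0464 and 0.0456). The exceptions were MED26 at -2.07 and Taf4 at -1.27, the second of them named after its value was seen. The one called core snRNP gene was SmG, with 260, 159 and 257 FPKM in the IPs, against 60.02, 46.4 and 47.3 FPKM in the Inputs (2.09 ± 0.40). The chromatin gene MrgBP was higher by 1.73 and the splicing-related ubiquitin-like gene ubl by 1.88. After median and total scaling the median of the polymerase list was 0.50 and 0.19, and that of the snRNP list 0.91 and 0.59, against -0.15 and -0.47 over all fitted genes.

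Mitochondrial genes lay high and were called about as often as genes at large. Of 74 fitted mitochondrial ribosomal protein genes 71 were higher in all 3 cell types, and the median was 1.34, while 2 were called higher (2.70%, against 2.29% over all fitted genes; mRpL54 at 1.63 and mRpL43 at 1.67, named after their values were seen). mRpL20 had 129, 59.2 and 144 FPKM in the IPs, against 39.9, 26.9 and 27.3 FPKM in the Inputs, and at 1.71 ± 0.41 it missed the threshold (limma, adjusted p = 0.0521). By limma, 70 of the 74 had an unadjusted p under 0.05, as had 25 of 83 oxidative phosphorylation genes, against 3226 of all 7815 fitted genes. Of 83 fitted oxidative phosphorylation genes 66 were higher in all 3 cell types, with medians of 1.61 in neurons, 0.35 in glia and 1.41 in the fat body, and 1 was called in each direction, CG31648 at 1.53 and CG31644 at -1.32 (both named after their values were seen). The respiratory chain gene CG10664, named COX4 in the later annotation, had 4722, 1395 and 3158 FPKM in the IPs, against 1305, 1238 and 1249 FPKM in the Inputs, so the glia pair hardly differed. The glia median of the oxidative phosphorylation list is smaller than the shift that median or total scaling gives the glia pair (-0.47 and -0.75), so its sign is not fixed. That of the mitochondrial ribosome, 0.62, is smaller than the shift of total scaling. After median and total scaling the medians were 0.76 and 0.43 for the mitochondrial ribosome and 0.52 and 0.18 for oxidative phosphorylation, against -0.15 and -0.47 over all fitted genes.

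The translation machinery of the cytosol did not move as one. Of 86 fitted cytosolic ribosomal protein genes 0 were called by limma, with 4 at an unadjusted p under 0.05, and the medians were -0.29 in the neuron pair, -0.16 in the glia pair and 1.60 in the fat body pair. Their overall median of 0.38 was near that of all fitted genes and turned negative under both scalings (-0.21 and -0.56). RpL41 had 7848, 9609 and 33424 FPKM in the IPs, against 10970, 9676 and 9432 FPKM in the Inputs, and stood out in the fat body IP. For RpL10Ab, which encodes the protein that carries the tag, the values were 7705, 21969 and 44378 FPKM in the IPs, against 2083, 2353 and 2273 FPKM in the Inputs. It had the largest mean difference of all fitted genes, 3.13 ± 0.80, was not called (limma, adjusted p = 0.0582), and transcripts of the transgene and of the gene itself cannot be told apart here. Of 56 fitted translation factor genes 0 were called higher and 3 lower (5.36%, below the 7.15% over all fitted genes). They were Rbp2 (eIF4H1 in the later annotation) at -2.32, eIF4G2 at -2.31 and 4EHP at -2.03, the last named after its value was seen. Ef1alpha48D, an elongation factor gene, had 1545, 2982 and 11055 FPKM in the IPs, against 4350, 3952 and 4158 FPKM in the Inputs, again high in the fat body IP alone. Aats-ser, named SerRS-m in the later annotation, was the one called gene of 24 fitted aminoacyl-tRNA synthetase genes, at 1.42. That is 4.17% called higher, against 2.29% over all fitted genes.

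**Figure D3:**
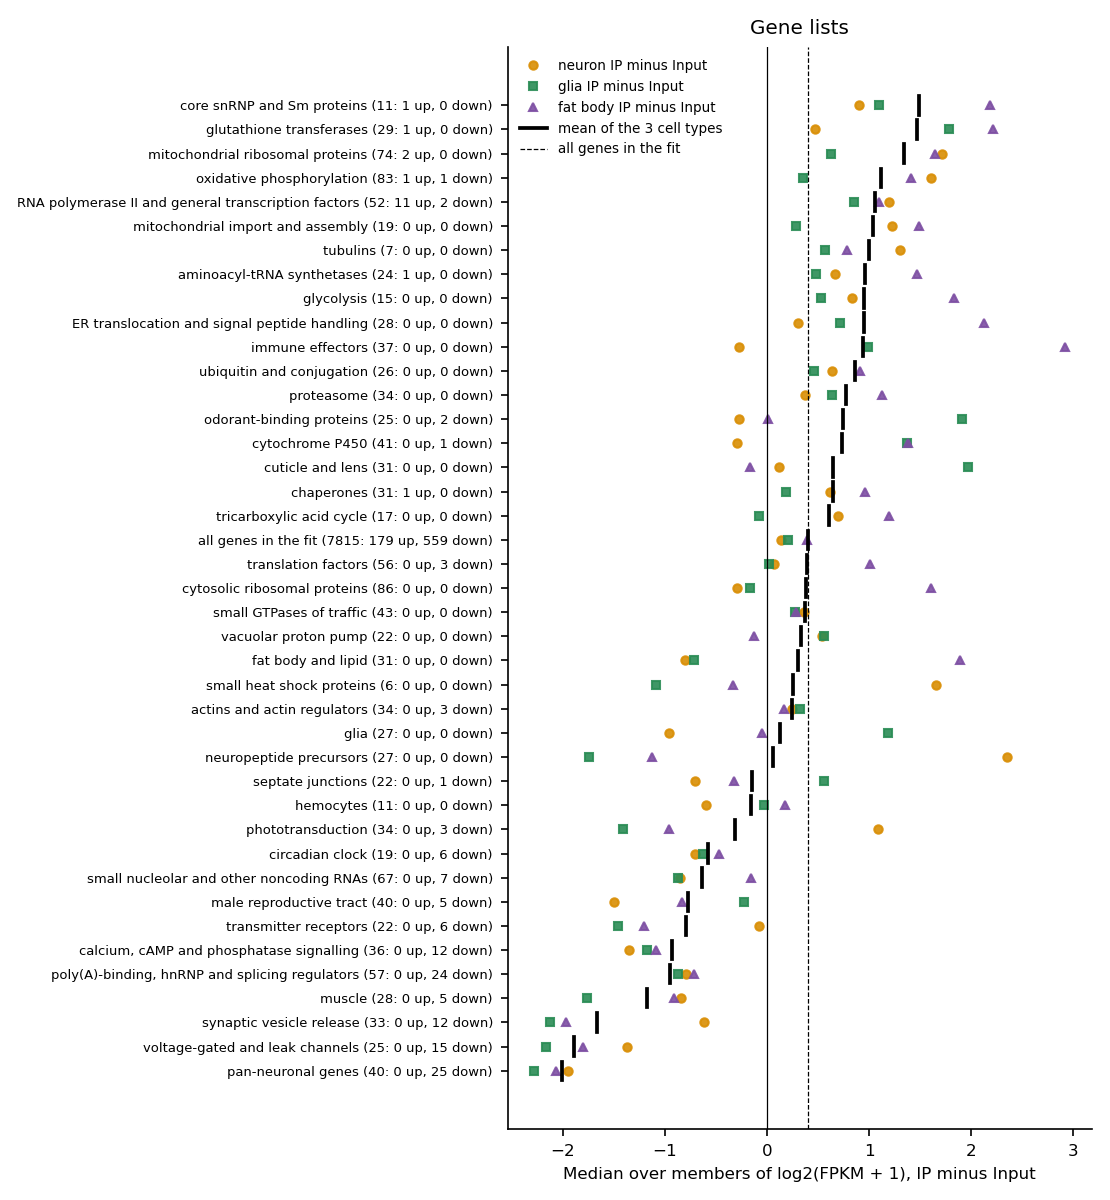
Median over the members of each of 40 gene lists, and over all fitted genes, of log2(FPKM + 1) in IP minus Input, for each cell type (coloured symbols) and for the mean of the 3 (black bar); the labels give the fitted members and the calls. Pan-neuronal, channel and vesicle lists lie lowest with their cell types on one side, at -2.01, -1.89 and -1.66, while neuropeptide and phototransduction lists have the neuron pair far right of the others.

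The remaining lists held few calls. Glutathione transferases had a median of 1.47 with 1 of 29 called higher (3.45%, against 2.29% over all fitted genes). The proteasome (34 genes, median 0.77), glycolysis (15 genes, 0.95), tubulins (7 genes, 1.00), the vacuolar proton pump (22 genes, 0.34) and the tricarboxylic acid cycle (17 genes, 0.60) had 0 calls by limma. The median of the proton pump turned negative under both scalings (-0.23 and -0.55), and those of the tricarboxylic acid cycle (-0.33) and the proteasome (-0.16) under total scaling. Lists of glia (27 genes), fat body and lipid (31 genes) and immune effectors (37 genes) had 0 calls, with the pair of their own cell type, or for immune effectors the fat body pair, the highest at 1.18, 1.89 and 2.92. Of 34 actins and actin regulators 3 were called lower (8.82%, near the 7.15% over all fitted genes). They were sif, shot, a giant linker of actin and microtubules, at -2.36, and Actn at -1.48. Of 22 septate junction genes 1 (4.55%), dlg1, was called lower at -1.58, and of 41 cytochrome P450 genes 1 (2.44%), Cyp4g1, at -1.37. Among 25 odorant-binding protein genes 2 (8%) were called lower, Obp49a at -1.42 and Obp19b at -1.32. Actn, Cyp4g1 and Obp19b were named after their values were seen. Hsp70Bb was the one called gene of 31 chaperone genes (3.23% called higher). Limma made 0 calls among genes of mitochondrial import (19), ER translocation (28), ubiquitin conjugation (26), small GTPases (43), cuticle and lens (31), hemocytes (11) and small heat shock proteins (6). In all, 17 lists had 0 limma calls among 467 memberships. Of these, 81 had an unadjusted p under 0.05 by limma, a smaller share than the 3226 of all 7815 fitted genes. Of 40 fitted male tract genes 5 were called lower (12.5%), with a median of -0.77, and the glia libraries hold most of these markers, as given above.

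Transcript length set called genes apart. Lengths were taken from a later annotation and found for 7495 fitted protein-coding genes, so they need not match the transcripts present in heads. The longest annotated transcript had a median of 911.5 bases in the higher genes, 5803 bases in the lower genes and 1880 bases in the genes not called. Across genes the mean difference correlated with transcript length with a Spearman rho of -0.59, and it did so in each pair, with -0.43 in neurons, -0.42 in glia and -0.52 in the fat body. FPKM is itself divided by length, so level and length are not independent here.

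Gene span gave a rho of -0.58, with medians of 991.5 bases in the higher genes and 16983 bases in the lower ones. The 3′ untranslated region (3′UTR), the stretch after the stop codon, differed as well. Its median was 100.5 bases in the higher genes, 1978 bases in the lower genes and 291 bases in the genes not called, and the rho with the difference was -0.54. When the genes were cut into 5 bins of 1499 by 3′UTR length, the median differences were 0.93, 0.75, 0.61, 0.22 and -0.85 from the shortest bin to the longest. The share called lower was 1.00%, 1.8%, 1.87%, 2.40% and 26.6% in the same order, so the change lies in the last bin, which starts at 928 bases. That bin held 399 of the 505 lower genes with a length (79.0%), and the 2 bins of the shortest 3′UTRs held 141 of the 176 higher ones (80.1%).

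**Figure D4:**
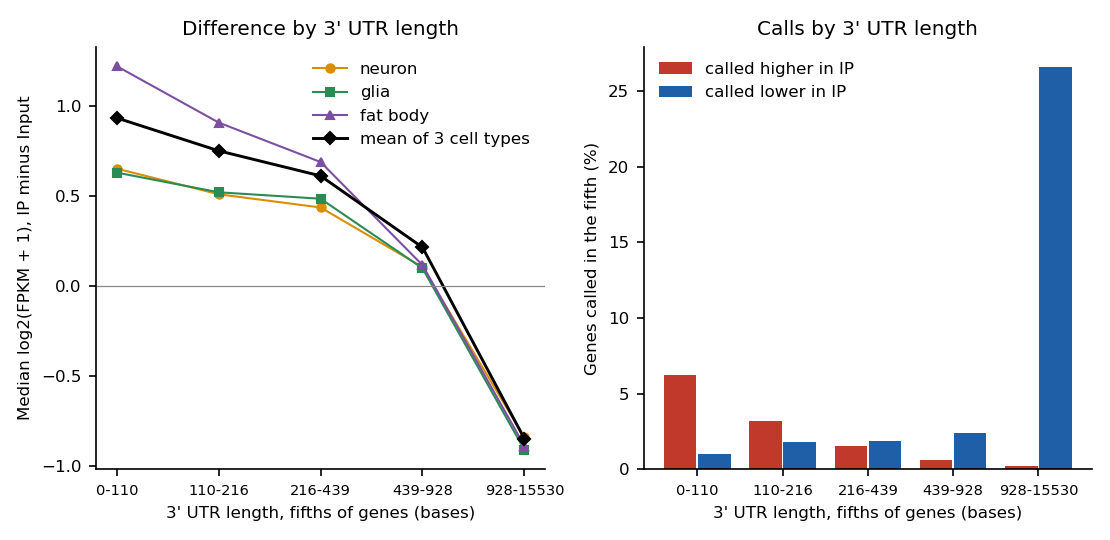
Median log2 difference of IP minus Input (left, by cell type and for the mean of the 3) and share of genes called higher or lower in the IPs (right) in 5 bins of 1499 protein-coding genes by 3′UTR length. The 4 shorter bins decline slowly and the longest bin drops to -0.85, where 26.6% of genes were called lower, and the 3 cell types meet there.

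Within each bin of coding length the median was lowest in the bin of the longest 3′UTRs. In the bin of the longest coding regions the rho of the difference with 3′UTR length was -0.67, and in the bin of the shortest it was -0.27. Within the 3′UTR bins, from the shortest to the longest, the rho with coding length was -0.25, -0.27, -0.38, -0.47 and -0.35, and that with 3′UTR length -0.06, -0.04, -0.09, -0.24 and -0.45. Genes with a long 3′UTR and a short coding region (the longest bin and the 2 shortest bins, 332 genes) had a median of -0.31. Of them 43 were called lower (13%, against 6.74% of all fitted protein-coding genes). Cam, with a coding length of 447 bases and a 3′UTR of 5015 bases, and cpx, with 471 and 8785 bases, were among them. Genes of the opposite kind, with a coding length in the longest bin and a 3′UTR in the 2 shortest (259 genes), had a median of 0.30, smaller than either scaling shift, with 10 called lower (3.86%). MED26, with a coding length of 4449 bases and a 3′UTR of 311 bases, was low with a 3′UTR of middle length. At 580 genes, those in the longest bin by both measures had the lowest median, -1.13, with 222 called lower (38.3%).

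**Figure D5:**
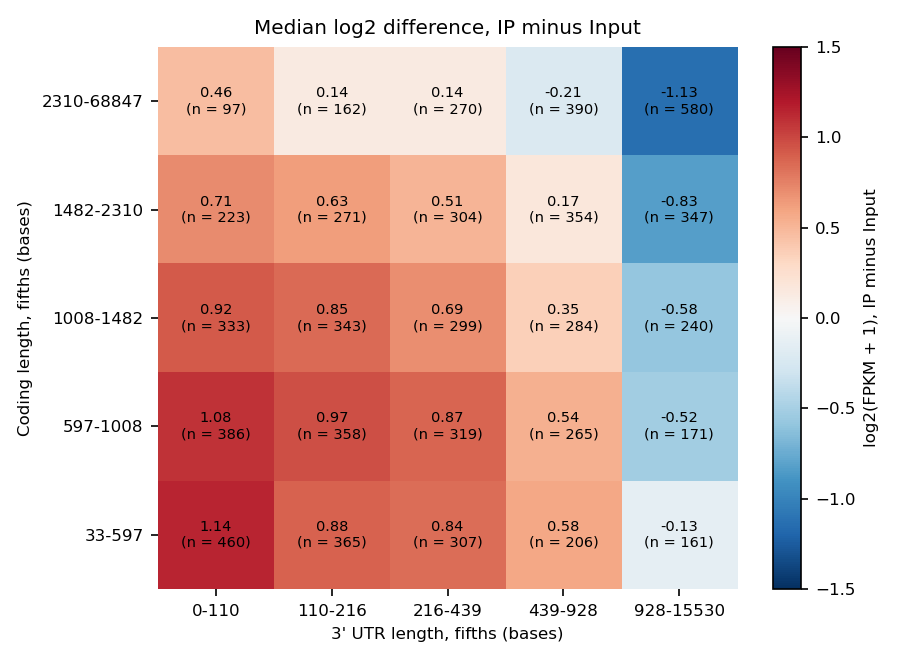
Median log2 difference of IP minus Input in 25 cells of protein-coding genes, by bin of 3′UTR length (horizontal) and bin of coding length (vertical), with the number of genes in each. The column of the longest 3′UTRs is negative in every row, from -0.13 at the shortest coding lengths to -1.13 at the longest. The row of the longest coding regions is positive for the 3 shorter 3′UTR bins, at 0.46, 0.14 and 0.14. These are smaller than either scaling shift (-0.60 and -0.94), so their sign is not fixed.

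Length and the gene lists were not separate. Of the 57 RNA regulator genes 55 had a length. The 41 in the longest 3′UTR bin had a median of -1.498 with 22 called lower (53.7%). The other 14 had a median of 0.45 with 1 called lower (7.14%), near the 6.74% of all fitted protein-coding genes. Of the pan-neuronal genes 36 lay in the longest bin, with a median of -2.01, and 3 outside it, with a median of -1.12. Over all neuron and photoreceptor lists, the 99 genes in the longest bin had a median of -1.58 with 46 called lower (46.5%). The 67 outside it had a median of -0.17 with 4 called lower (5.97%), and lay at 1.18 in the neuron pair, -1.34 in the glia pair and -0.81 in the fat body pair. Outside the neuron and photoreceptor lists, the 1400 genes of the longest bin had a median of -0.80, with 353 called lower (25.2%). Genes of such lists were 9.12% of the lower genes (51 of 559) and 2.14% of the fitted ones (167 of 7815). Among genes with a length, 30.1% of the listed ones were called lower, against 6.21% of the others.

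Length was not the only feature that went with the calls. Genes with the lowest mean level over the 6 columns, up to 8.14 FPKM, were called lower in 19.0% of cases and those above 59.7 FPKM in 0.667%. The rule asks for 5 FPKM in an Input and nothing of the IPs, so genes at a low mean level are there because an Input was high. The gene tx, just inside the rule with 5.00 FPKM in its highest Input, had 5.87, 5.08 and 3.48 FPKM in the IPs of neurons, glia and fat body, and Pez, just outside it, also rounding to 5.00 FPKM, had 2.98, 5.04 and 5.39 FPKM. On the 4th chromosome 18 of 72 genes were called lower (25.0%), with a median of -0.95, and the median 3′UTR of its coding genes was 630 bases, against 468.5 bases on the X, where 9.27% were called lower, and 265 to 306 bases on the other arms.

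The authors' deposited table gives q-values between the 3 IPs. Of the 559 lower genes 291 (52.1%) had no pair of IPs with a q under 0.05 in the authors' deposited table, and of the 179 higher genes 129 (72.1%), against 33.4% of all fitted genes. These counts do not show that the IPs were alike. The lowered gene pAbp, with 12.2, 23.9 and 64.2 FPKM in the IPs of neurons, glia and fat body, is among them. Whether every q comes from a completed test is not given. In the authors' deposited table the glia and fat body IPs differed at a q under 0.05 for 26.8% of the higher genes and 32.7% of the lower ones, against 54.6% of all fitted genes. For the neuron and fat body IPs the authors' deposited table gave 2.79% of the higher and 8.77% of the lower, against 25.8%, and for the neuron and glia IPs 2.79% and 25.9%, against 30.5%. The limma model asks for a like difference in all cell types, so genes that vary between IPs had less chance of a call.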

How the data were processed

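RNA of adult fly heads was sequenced from polyA libraries as paired 100 bp reads, per the labels' protocols. Per the submitters' processing notes, TopHat2 2.0.6, Cufflinks 2.0.2, Cuffdiff 2.0.2 and build BDGP5 were used. The authors deposited FPKM for 15104 genes in 6 groups of 2 biological replicates, each replicate a pool of 4 technical ones per the labels, with 1 value a group, and a q-value for each of the 3 pairs of IPs. Normalization between libraries and the annotation release are not given in the sources used here. No value per library and no depth was at hand, so no value has an SD or an interval for counting error. All 6 columns were used.

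Computed here: log2(FPKM + 1), with genes at 5 FPKM or more in at least 1 Input and not listed at 0 (7815), in limma 3.58.1 (R 4.3.3; lmFit, eBayes with trend) with a term for IP and the cell type as replicate block, adjusted by Benjamini-Hochberg and called under 0.05. IP and Input of a cell type come from the same lysates per the labels; their deviations from the group means correlated at 0.37, 0.38 and 0.13 for neuron, glia and fat body. The rep1 and rep2 of the labels are not in the columns. The procedure was tested on simulated data.

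Members and the 40 lists were chosen with earlier results of these data known, and wrong memberships in the lists were corrected after values had been seen; no list was tested. Named genes were the 15 largest called differences each way leaving out genes known by a CG or CR number, elav, repo, to and RpL10Ab, and from each list the 2 highest by mean Input and 2 others with the largest difference; the text uses a selection. Lengths came from the BDGP6 annotation, matched by identifier (7355 genes) or by an exact, unique symbol (211), 96.8% in all; for each gene the longest transcript was used. No coordinates were used. Alternatives were the block, the trend, pseudocount, filters, 2 scalings, zeros, each cell type left out, and the fold. Python 3.11.15, pandas 2.3.3 and matplotlib 3.10.9 were used.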

Additional observations from a re-analysis of the deposited data

Results flagged for a closer look

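For 3 gene lists the median log2 difference of IP minus Input was at least 1 in one cell type and at most -1 in another. The difference between cell types was not tested. Neuropeptide precursors had 2.35 in the neuron pair, -1.74 in the glia pair and -1.13 in the fat body pair. Phototransduction genes had 1.09, -1.41 and -0.96 in the same order. Small heat shock proteins, with 6 fitted genes, had 1.65, -1.08 and -0.33; Hsp23, one of them, had 251, 12.4 and 12.9 FPKM in the IPs, against 25.4, 24.4 and 17.1 FPKM in the Inputs.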

How the results depend on the processing

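Limma's calls depended on the model and the direction of higher genes on scaling; 0 of the genes named in the text that were called changed sign. Counts are given as higher and lower. With no replicate block for the cell type there were 614 and 526 calls, of which 175 and 429 were among those of the paired fit. Without the trend, and with a mean of at least 5 FPKM, there were 0 and 0. A pseudocount of 5 FPKM gave 5 and 195, 1 FPKM in any column 36 higher (lower 445), 20 FPKM in an Input 3 and 90, median scaling 19 and 1516, and total scaling 7 and 1981. Leaving out 1 cell type gave 0 to 24 and 0 to 388, with only 2 pairs left. Genes 2-fold apart in every cell type numbered 210 and 194 with a pseudocount of 5 FPKM, 229 and 207 with 20 FPKM in an Input, 19 and 1081 with median scaling, and 4 and 1397 with total scaling. They numbered 518 to 931 and 592 to 803 with 1 cell type left out, 1299 and 934 at 1.5-fold, and 3 and 77 at 4-fold. Lists with a median below 0 numbered 13, then 22 with median scaling and 29 with total scaling, and 13 to 15 without 1 cell type. The rho with transcript length was -0.45 with 1 FPKM in any column, -0.65 with a mean of 5 FPKM, -0.52 for the shortest transcript, -0.51 among genes below the median level and -0.58 to -0.52 without 1 cell type. That with 3′UTR length was -0.40 with 1 FPKM in any column and -0.54 to -0.47 without 1 cell type; this measure was added after lengths of called genes had been seen. Beyond the settings' own construction, the cause was not tested.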
